A study of Homo sapiens with 12 samples.

Results

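YEATS2 was knocked down with a short hairpin RNA (shYEATS2) in SW872 cells expressing the fusion protein YAP-TFE3 (YT), and RNA sequencing of these cells was set against YT cells with a non-targeting hairpin (shNT). The members were taken by title: 4 of the 12 samples, 2 with each hairpin. SW872 is a human liposarcoma line. All 4 samples carried the same fusion, delivered by a retroviral vector and kept under G418, and a lentiviral hairpin kept under puromycin, so each group is a pooled transduced population and not a clone. YAP-TFE3 is found in a subset of epithelioid hemangioendothelioma, a vascular sarcoma, so the liposarcoma line stands in for the tumour cell and the fusion is driven by a viral vector beside the native YAP1 and TFE3 genes. The other 8 samples (2 of YT with a ZZZ3 hairpin, and 2 each of SW872 cells with the TAZ-CAMTA1 fusion, TC, and the shNT, YEATS2 or ZZZ3 hairpin) entered the same model and served for 2 comparisons. The study calls these duplicates biological. Its methods describe separate transduction for sequencing replicates in general, as triplicates, and do not name these duplicates, so the p-values measure the spread between these samples.

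YEATS2 is a scaffold subunit of the Ada-two-A-containing (ATAC) histone acetyltransferase complex and reads acylated histone tails through its YEATS domain. ATAC holds the acetyltransferases KAT2A or KAT2B and KAT14, and it acts on promoters and enhancers together with sequence-specific factors. YAP-TFE3 joins the part of YAP that binds the TEAD factors, the DNA-binding partners of YAP and TAZ, to most of TFE3, a basic helix-loop-helix factor that controls lysosome and nutrient-response genes.

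The study designed 5 hairpins against YEATS2, and which of them was sequenced, and whether it was the same one in both lines, is not given in the sources used here. Their 21-base targets are shown because they define the perturbation. All 5 match the canonical YEATS2 transcript of 6526 bases and 31 exons on the plus strand of GRCh38. Of 6 YEATS2 transcripts searched, hairpin 3 matched 2, and hairpins 1, 2, 4 and 5 matched 1 each. The capitals mark the bases that pair with the hairpin, here the whole target.
hairpin 1: CGTCAGAGTTCAAGTTCATTT
hairpin 2: CCTAACTACAAACAGCAAGAA
hairpin 3: CCAGTCAGAAATCTGTTCTAT
hairpin 4: GCGAGCTACGAACAATGCTAA
hairpin 5: ATAACAGCAATATGGATATAG

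Hairpin 1 lies in the coding part of exon 8 at chr3:183736763-183736783. Hairpin 2 lies in coding exon 17 at chr3:183773706-183773726, and hairpin 4 spans the junction of exons 17 and 18, so that its genomic span of chr3:183773775-183775915 includes the intron. Hairpin 3 lies in the untranslated end of exon 31 at chr3:183811777-183811797. Hairpin 5 lies in coding exon 5 at chr3:183722063-183722083.

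YEATS2 (ENSG00000163872, chromosome 3, 183697797 to 183812624) stood at 115 and 117 counts per 1000000 (CPM, TMM-scaled) in the YT shNT samples and at 33.9 and 38.5 CPM in the YT shYEATS2 samples. Both knock-down samples were below both control samples. The log2 fold change was -1.68 ± 0.18 (SE, n = 2 per group, edgeR adjusted p = 1.05e-04), and the means were 116 ± 2.03 CPM (SD) in control and 36.2 ± 3.27 CPM (SD) in the knock-down. In TC cells with a YEATS2 hairpin YEATS2 had a log2 fold change of -1.54, and the difference between the lines was -0.13 (edgeR adjusted p = 0.781). The YT shZZZ3 samples, in which YEATS2 was not targeted, held 138 and 134 CPM.

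All 13 ATAC subunits were tested, and besides YEATS2 only DR1 (NC2beta, a TBP-binding subunit) changed. DR1 stood at 94.5 and 75.8 CPM in YT shNT and 49.7 and 43.0 CPM in YT shYEATS2 (log2 fold change -0.88, edgeR adjusted p = 0.0223). ZZZ3, the subunit with a ZZ-type zinc finger, stood at 71.2 and 49.1 CPM in YT shNT and 31.4 and 30.7 CPM in YT shYEATS2. Its knock-down samples were both below the controls, but the controls differed among themselves and the change of -0.95 did not pass (edgeR adjusted p = 0.130). KAT2A and KAT2B, the catalytic subunits, had log2 fold changes of 0.11 and -0.56 and neither passed. Of the 18 subunits particular to SAGA, the sister complex, ATXN7L3 of the deubiquitinase module rose by 0.81 and SUPT20H, a core subunit encoded on chromosome 13, had a log2 fold change of -0.75. Among 21 other acetyltransferases, deacetylases and readers, HDAC1 (0.93), HDAC5 (0.92) and the bromodomain protein BRD2 (0.54) were higher, and KAT6A (-0.79) and CREBBP (-0.57) were lower on the log2 scale. Without 1 of the 4 samples, 1 ATAC subunit, 0 SAGA subunits and 0 to 1 rises of the last list were called.

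Total counts ranged from 17451893 to 25086177 in the 4 samples and from 17451893 to 29294805 in all 12. Mitochondrial transcripts made up 3.66% to 6.17% of the counts in the 4 samples. Cell type was checked against fixed markers. All 8 mesenchymal markers were detected and summed to 1907 and 2040.0 CPM in YT shNT and 2839 and 2926 CPM in YT shYEATS2. Of 6 adipocyte markers only 2 passed the filter on low counts, and ADIPOQ, FABP4, CIDEC and LEP did not. Leukocyte markers summed to 1.21 and 1.61 CPM in the controls and 7.58 and 7.23 CPM in the knock-down, through LYZ and CD14. The pan-leukocyte marker PTPRC did not pass the filter. Neuronal markers, of which SNAP25 and TUBB3 were tested, summed to 9.19 and 7.65 CPM in the controls and 27.4 and 27.1 CPM in the knock-down. Epithelial markers (all 6 tested) lay between 475 and 569 CPM, endothelial markers between 90.8 and 115 CPM and muscle markers between 1.54 and 4.95 CPM in the 4 samples.

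Many genes differed between the YT cells with the 2 hairpins. Whether the fall of YEATS2 was the cause was not tested. Of 18415 genes tested, 3821 passed at an edgeR adjusted p under 0.05 (20.7% of all tested): 1769 were higher (9.61%) and 2052 lower (11.1%) in YT shYEATS2. At least 2-fold changes were found for 1119 of the higher genes (6.08% of those tested) and 1551 of the lower ones (8.42%). The extremes lay on the lower side, where 270 genes fell at least 8-fold against 83 that rose at least 8-fold. The samples of the groups did not overlap for any of the 3821 called genes, but this was so for 74.2% of all genes tested. Each of the 4 samples, when left out (the lone sample then being taken to vary like the other groups), left 1527 to 1654 genes called, and a fit to these 4 samples alone called 8719. From here on a value in parentheses after a gene is its log2 fold change of YT shYEATS2 against YT shNT, unless another comparison is named, and a median of a list is a median of these values over its tested members.

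**Figure D1:**
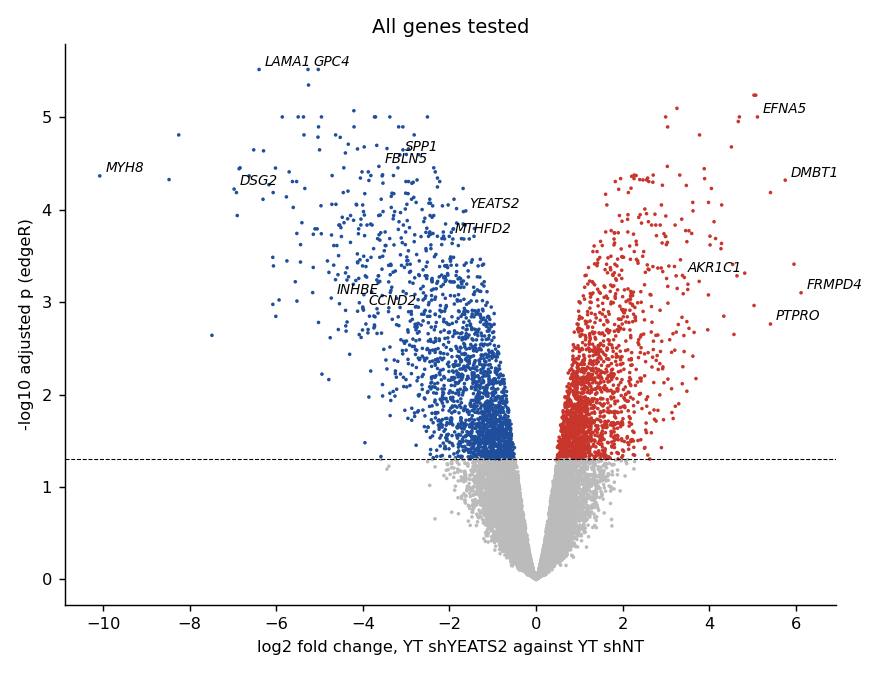
Log2 fold change of YT shYEATS2 against YT shNT (x) and the -log10 adjusted p of edgeR (y) for the 18415 genes tested, with called genes coloured by direction and named genes labelled. The dashed line marks an adjusted p of 0.05. The arm of falls reaches further from 0 than the arm of rises, down to MYH8 at -10.08, a fitted value that rests on 1 count in the knock-down.

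Genes of the integrated stress response fell together. In this pathway, kinases that sense amino acid shortage, endoplasmic reticulum stress, haem or double-stranded RNA phosphorylate eIF2alpha, which lowers general translation but favours translation of ATF4, the transcription factor that then drives amino acid synthesis, amino acid uptake and redox genes. Of 22 such genes tested, 18 were lower and 0 higher, with a median log2 fold change of -1.93 (all genes: -0.01). In each of the 18, both YT shNT samples were above all 10 other samples of the series, which was so for 1135 of the 2052 lower genes in all (55.3%, and 6.16% of the genes tested). Leaving out any single one of the 4 samples left 12 to 15 called.

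The secreted members fell furthest. INHBE (ENSG00000139269, chromosome 12, 57452323 to 57459280), a chain of activin E, stood at 75.8 and 93.9 CPM in YT shNT and 3.41 and 2.79 CPM in YT shYEATS2. The knock-down samples were far below the controls, by -4.73 ± 0.70 on the log2 scale (SE, edgeR adjusted p = 9.03e-04). FGF21, a metabolic hormone, had 55 counts over both controls and 1 count over both knock-down samples. Scaled for depth, this is lower by 65.7-fold, with an exact 95% counting interval of 11.3 to 2642, which covers counting error only. STC2 (stanniocalcin 2), a secreted glycoprotein, stood at 366 and 416 CPM in YT shNT and 48.7 and 49.9 CPM in YT shYEATS2 (-2.99), again with no overlap.

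Enzymes and carriers for amino acids fell with them. CTH, which makes cysteine from cystathionine, stood at 54.2 and 63.5 CPM in YT shNT and 7.74 and 8.15 CPM in YT shYEATS2. ASNS, the asparagine synthetase, stood at 10.3 and 8.80 CPM in YT shNT and 1.46 and 2.58 CPM in YT shYEATS2, and PSAT1, of serine synthesis, at 896 and 1005 CPM in YT shNT and 219.8 and 164 CPM in YT shYEATS2. Controls were above knock-down samples for all of these, and their log2 fold changes were -2.88, -2.21 and -2.31. SLC7A11, the cystine/glutamate exchanger, changed by -2.57, its partner chain SLC3A2 by -1.73, and MTHFD2, of mitochondrial folate metabolism, by -2.01. PHGDH, the first enzyme of serine synthesis (-0.10, edgeR adjusted p = 0.850), and CBS, upstream of CTH (-0.61, edgeR adjusted p = 0.139), did not pass.

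Among the regulators, DDIT3 (CHOP), a C/EBP-family factor, stood at 127 and 143 CPM in YT shNT and 32.3 and 30.3 CPM in YT shYEATS2 (-2.11), with the controls above. CEBPG, a partner of ATF4, changed by -1.88, TRIB3, a pseudokinase, by -1.75, NUPR1, a stress-induced chromatin protein, by -2.07 and CHAC1, which degrades glutathione, by -1.97. The eIF2alpha phosphatase subunit PPP1R15A (-1.44) and the mTORC1 inhibitors SESN2 (-1.25) and DDIT4 (-1.14) also fell, as did VLDLR, a lipoprotein receptor (-0.88). ATF4 mRNA itself stood at 562 and 577 CPM in YT shNT and 373 and 378 CPM in YT shYEATS2 (-0.60 ± 0.22, edgeR adjusted p = 0.0727) and did not pass, nor did ATF5 (-0.25, edgeR adjusted p = 0.552). ATF3 (-2.46) and the cytokine GDF15 (-4.48), both outside the list and held by other lists here, fell.

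**Figure D2:**
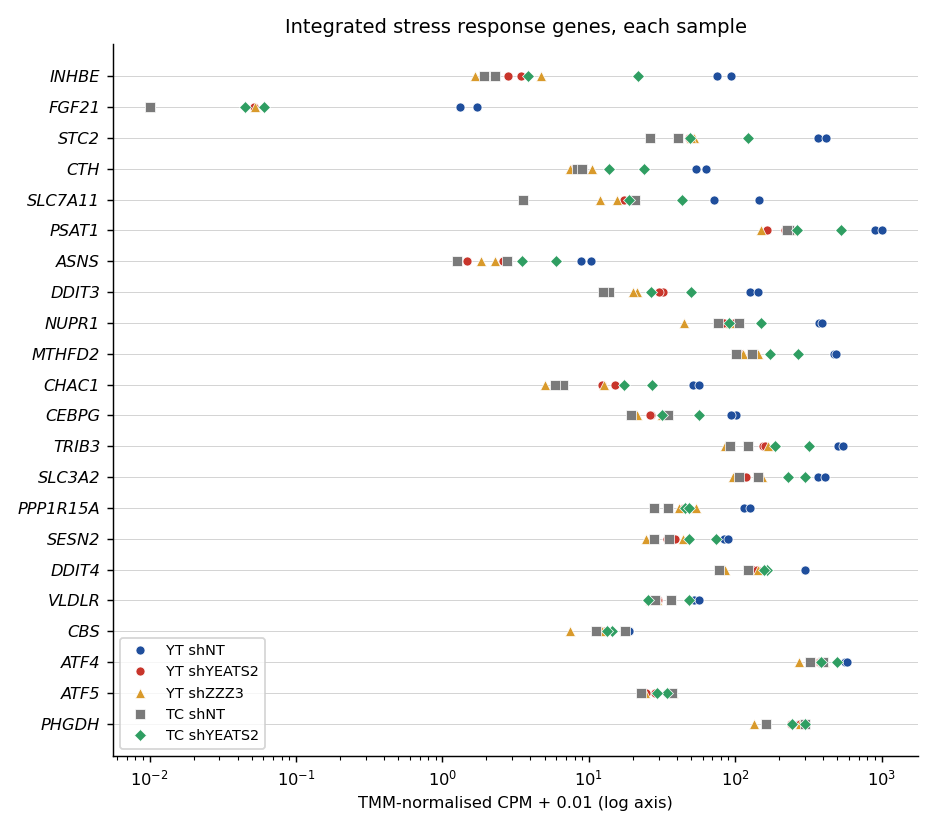
TMM-scaled CPM + 0.01 on a log axis (x) for the 22 members of the integrated stress response list (y), each point 1 sample of YT shNT, YT shYEATS2, YT shZZZ3, TC shNT or TC shYEATS2. The YT shNT points lie above those of YT shYEATS2 and YT shZZZ3 for the called members, while in the TC line the 2 shYEATS2 samples differ from each other.

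The CCAAT-C/EBP-ATF response element, searched as TGATGNAA on both strands from 250 bases before to 50 after the RefSeq transcript start (GRCh38), was found in 4 of the 19 list members with a promoter entry (21.1%). Of all 11535 promoters of tested genes, 1.78% held it. The share was 3.47% of 923 promoters of genes at least 2-fold lower and 1.99% of 752 promoters of genes at least 2-fold higher. Windows around 3 of the 4 matches are shown, as the list fell together. They are written 5′ to 3′ on the strand of the gene, and the capitals mark the match.
CHAC1: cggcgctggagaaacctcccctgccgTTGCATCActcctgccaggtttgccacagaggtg
ASNS: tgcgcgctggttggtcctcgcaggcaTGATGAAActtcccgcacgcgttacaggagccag
FGF21: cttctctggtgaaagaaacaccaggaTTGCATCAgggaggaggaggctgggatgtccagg

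The CHAC1 window is chr15:40953236-40953295, plus strand, with the match starting 209 bases before the transcript start. That of ASNS is chr7:97872443-97872502, minus strand (68 bases before), and that of FGF21 is chr19:48755444-48755503, plus strand (54 bases before). A match is a description of the letters and not a bound site. Of the other motifs searched on both strands, the AP-1 letters TGANTCA were found in 4.66% of all promoters, 6.83% of those at least 2-fold lower and 6.52% of those at least 2-fold higher; each motif was counted on its own, overlaps with another included. The TEAD core GGAATG was found in 11.1%, 11.2% and 12.4%, and the CACGTG E-box, which TFE3 reads, in 9.93%, 8.88% and 7.98% of the same sets.

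Of 18 unfolded protein response genes, which raise the folding capacity of the endoplasmic reticulum, 10 were lower and 1 higher, with a median of -0.63. In all 10 falls both YT shNT samples were above all 10 other samples, which was so for 55.3% of all lower genes. HSPA5 (BiP), the main chaperone of that compartment, stood at 1910.1 and 2305 CPM in YT shNT and 1229.7 and 1240.3 CPM in YT shYEATS2 (-0.77). The co-chaperone DNAJB9 (-1.79), the sensors ERN1 (-1.75), EIF2AK3 (-0.69) and ATF6 (-0.68), the factor XBP1 (-0.92) and the chaperone HYOU1 (-0.58) were lower. CALR (calreticulin), a lectin chaperone, went the other way, from 937 and 1008 to 2513 and 2352 CPM (1.32). Without any single one of the 4 samples only 2 to 3 falls and 1 rise were called. Of 12 heat shock genes, with a median of -0.04 and a called share of 16.7%, HSPH1 (-1.26) and DNAJA1 (-0.63) were lower.

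Of 39 tRNA synthetases and translation factors, 10 were lower and 1 higher, with a median of -0.40. In all 10 falls both YT shNT samples were above the 10 others of the series, which was so for 55.3% of all lower genes. GARS1 (glycine), the furthest, stood at 685 and 749 CPM in YT shNT and 247 and 221 CPM in YT shYEATS2 (-1.61). IARS1 (-1.51), WARS1 (-1.46), NARS1 (-1.19) and AARS1 (-1.02), which charge isoleucine, tryptophan, asparagine and alanine, were also lower, while HARS1 (histidine) was higher (0.89). With 1 sample left out, 2 to 6 falls were called. Among the solute carriers, SLC7A5, the LAT1 carrier of amino acids, stood at 735 and 852 CPM in YT shNT and 150.3 and 161 CPM in YT shYEATS2 (-2.35), and the cationic amino acid carriers SLC7A3 and SLC7A2 changed by -3.55 and -2.08, SLC7A2 from chromosome 8. Over all 246 solute carriers tested, 45 were lower and 27 higher, and the largest rise was SLC1A7, a glutamate carrier with 1 count over the controls and 100 over the knock-down samples (higher by 83.7-fold, with an exact 95% counting interval of 14.7 to 3339).

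Ribosome biogenesis genes were lower in 6 of 22 cases and higher in 0, with a median of -0.46. RRN3, an RNA polymerase I factor with near-identical copies, changed by -1.01. The nucleolar proteins NPM1 and NCL stood at 420.2 and 443 CPM in YT shNT and 235 and 229 CPM in YT shYEATS2 and at 610.3 and 597 CPM in YT shNT and 396 and 322 CPM in YT shYEATS2 (-0.89 and -0.75). Leaving out 1 sample left 0 to 1 called. The cytosolic ribosomal proteins did not follow, with a median of -0.00092 over 79 genes, 1 higher and 2 lower. Of 37 proteasome subunits, PSMC5 was higher (0.56) and none lower.

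Genes that TFE3 and its relatives TFEB and MITF drive under nutrient stress were lower or did not pass. Of 16 tested, 7 were lower and 0 higher, with a median of -0.46. RRAGD (ENSG00000025039, chromosome 6, 89364616 to 89412273), a Rag GTPase of mTORC1 amino acid sensing, stood at 67.6 and 72.2 CPM in YT shNT and 14.2 and 13.5 CPM in YT shYEATS2. Its groups were far apart, and the log2 fold change was -2.33 ± 0.21 (SE, edgeR adjusted p = 3.89e-05). GPNMB, a lysosomal glycoprotein, stood at 409.8 and 446 CPM in YT shNT and 116 and 114 CPM in YT shYEATS2 (-1.90). The autophagy genes MAP1LC3B (-1.20), GABARAPL1 (-0.57) and ATG9B (-2.12) and the folliculin partners FNIP1 (-1.18) and FNIP2 (-1.01) were also lower. When 1 sample was left out, 3 to 4 members were called lower.

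Of 46 genes of lysosomal enzymes, membrane proteins and the proton pump, 10 were lower and 2 higher, with a median of -0.17. The called share was 26.1%, beside 20.7% of all genes tested. The cathepsins CTSS (-2.28) and CTSK (-1.18) and the membrane protein LAMP2 (-0.87) were lower, while cathepsin CTSZ (0.80) and the galactosidase GLA (0.67) were higher. The acid ceramidase ASAH1 (-1.42) and the pump subunits ATP6V1C1 (-1.38), ATP6V1B2 (-1.08) and ATP6V1H (-0.96) were lower too, and all 4 are encoded on chromosome 8, whose genes were lower in the knock-down as a whole (given with the chromosomes). With 1 sample left out, 4 to 6 falls and 0 to 1 rises were called.

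Targets of YAP and TAZ were split. Of 22 tested, 4 were higher and 6 lower, with a median of -0.13. ANKRD1, an ankyrin-repeat cofactor and one of the most used reporters of YAP activity, stood at 1.0 and 0.690 CPM in YT shNT and 8.74 and 5.94 CPM in YT shYEATS2 (2.99 ± 0.35, edgeR adjusted p = 1.94e-04), with both knock-down samples higher. CCN1 (CYR61), a matricellular protein, stood at 66.3 and 80.4 CPM in YT shNT and 160.1 and 132 CPM in YT shYEATS2 (0.99), while its relative CCN2 (CTGF) stood at 53.5 and 60.7 CPM in YT shNT and 40.7 and 31.1 CPM in YT shYEATS2 (-0.67, edgeR adjusted p = 0.0571) and did not pass. F3 (tissue factor, 1.39) and the kinase NUAK2 (0.92) were higher. FOXF2, a forkhead factor (-1.5), NT5E, an ectonucleotidase (-1.20), AJUBA, a LIM scaffold (-0.92), and LATS2, a Hippo kinase on chromosome 13 (-1.24), were lower. In the leave-outs of 1 sample 1 rise and 3 to 4 falls were called. Of the 16 targets with a promoter entry, 7 (43.8%) held GGAATG.

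The parent genes of the fusion did not pass the test, while some of their partners did. Counts for YAP1 and TFE3 pool native and fusion transcripts over the shared exons. YAP1 stood at 226 and 209.9 CPM in YT shNT and 184 and 168 CPM in YT shYEATS2 (-0.31, edgeR adjusted p = 0.410) and TFE3 at 223 and 239 CPM in YT shNT and 208 and 209 CPM in YT shYEATS2 (-0.15, edgeR adjusted p = 0.675). WWTR1, which encodes TAZ, was higher, at 185 and 159 CPM in YT shNT and 334 and 253 CPM in YT shYEATS2 (0.77), and so was MITF (0.98). TEAD1 stood at 490.0 and 384 CPM in YT shNT and 214 and 208 CPM in YT shYEATS2 (-1.05) and TEAD4 at 44 and 41.9 CPM in YT shNT and 17.4 and 17.8 CPM in YT shYEATS2 (-1.28), both lower. VGLL2, a TEAD cofactor of muscle, had 2 counts over the controls and 22 over the knock-down samples, higher by 9.21-fold, with an exact 95% counting interval of 2.26 to 80.8. In the Hippo pathway the scaffolds WWC1 (-2.16) and WWC2 (-1.25) were lower and the FERM protein FRMD6 (1.31) and the angiomotin AMOTL1 (0.50) higher, with 4 falls and 2 rises among 24. Leaving out 1 sample left 0 to 1 rises and 0 to 1 falls of the TEAD and parent genes and 3 to 4 falls and 1 rise of the Hippo genes.

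The extracellular matrix was exchanged in part, with large changes both ways. LAMA1 (ENSG00000101680, chromosome 18, 6941742 to 7117797), the alpha chain of laminin-111 of basement membranes, stood at 340.0 and 371 CPM in YT shNT and 4.08 and 4.18 CPM in YT shYEATS2. The controls were more than an order of magnitude above the knock-down samples, and the change on the log2 scale was -6.40 ± 0.33 (SE, edgeR adjusted p = 3.02e-06). GPC4 (ENSG00000076716, chromosome X, 133300103 to 133415489), a heparan sulfate proteoglycan that binds growth factors, stood at 80.6 and 80.9 CPM in YT shNT and 2.62 and 1.34 CPM in YT shYEATS2 (-5.27 ± 0.27, edgeR adjusted p = 3.02e-06). FBLN5 (ENSG00000140092, chromosome 14, 91869411 to 91947987), which assembles elastic fibres, stood at 55.0 and 57.7 CPM in YT shNT and 5.04 and 3.87 CPM in YT shYEATS2 (-3.63 ± 0.30, edgeR adjusted p = 3.39e-05). SPP1 (osteopontin, ENSG00000118785, chromosome 4, 87975667 to 87983532), a ligand of integrins and CD44, stood at 418 and 446 CPM in YT shNT and 54.5 and 43.0 CPM in YT shYEATS2 (-3.14 ± 0.26, edgeR adjusted p = 2.54e-05). None of the 4 genes overlapped between the groups, and the study had singled them out on these samples.

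By kind of matrix, 6 of 24 basement membrane genes were higher and 4 lower. LAMA2, the laminin chain of muscle, rose by 2.69, and LAMA4, NID2, COL4A1 and COL4A2 by 0.97, 1.41, 0.89 and 0.89 on the log2 scale. FREM1, a basement membrane protein of epithelia, had a change of -4.40 and COL15A1 of -1.55. Elastic fibre genes were higher in 6 and lower in 4 of 25. Hemicentin HMCN1 went from 12 and 9.26 to 152 and 187 CPM (3.98) and the fibrillin FBN2 from 45.4 and 45.0 to 289 and 348 CPM (2.81), while the microfibril protein MFAP4 (-3.68) and the crosslinking oxidase LOXL1 (-2.30) were lower. Of the heparan sulfate carriers, GPC3 (-4.15) was lower beside GPC4.

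COL3A1, a fibrillar collagen of soft tissue, rose from 14.9 and 16.7 to 44.8 and 54.6 CPM (1.65) and COL5A2 by 1.77, while COL6A3 (-2.44) was lower and COL22A1, with no count in the knock-down, was at least 22.7-fold lower. Of 12 proteoglycan and hyaluronan genes, 6 were higher and 1 lower. VCAN (versican), which binds hyaluronan, stood at 34.7 and 23 CPM in YT shNT and 161 and 150.0 CPM in YT shYEATS2 (2.43), the hyaluronan receptor CD44 rose by 1.43 and the synthase HAS2 by 0.99. BCAN (brevican), the lone fall, changed by -4.76. Of 23 adhesive glycoproteins, 7 were higher, among them THBS1 (1.45), TNC (1.0) and SPARC (0.74), and 3 lower, SPP1, SPARCL1 (-2.66) and POSTN (-1.88, chromosome 13). Their integrin receptors gave 4 rises, led by ITGB8 (2.20), and 1 fall, ITGB3 (-1.38), of 18.

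Matrix proteases and their inhibitors gave 11 rises and 7 falls of 32. MMP16, a membrane-bound metalloprotease on chromosome 8, stood at 0.422 and 0.345 CPM in YT shNT and 5.74 and 5.52 CPM in YT shYEATS2 (3.59), against the direction of that chromosome. ADAMTS6 (2.93) and MMP9 (2.66) were higher, and ADAMTS2, which trims procollagen, was lower at 10.7 and 10.8 CPM in YT shNT and 0.999 and 1.08 CPM in YT shYEATS2 (-3.27). The plasminogen activators PLAT (-1.92, chromosome 8) and PLAU (-0.80) were lower. Leaving out 1 sample changed the counts of these matrix lists to 1 to 4 rises and 4 to 5 falls for basement membrane, 3 to 4 and 2 to 4 for elastic fibre, 2 to 3 and 1 for proteoglycans, 1 to 3 and 2 to 3 for adhesive proteins, 1 to 3 and 0 for integrins and 5 to 7 and 2 to 3 for proteases.

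Skeletal muscle genes held the largest falls. Of 58 list members, 24 did not pass the filter on low counts. Of the 34 tested, 11 were lower and 2 higher. In 10 of the 11 falls both YT shNT samples were above the 10 others of the series (55.3% of all lower genes). The filter averaged all 12 samples, so members with no count in the knock-down passed it only through other groups. That can raise both of these counts. MYH8, the perinatal myosin heavy chain, had 4395 counts over both controls and 1 over both knock-down samples, which is lower by 5250.5-fold, with an exact 95% counting interval of 942 to 207430.0. MYH2, of fast muscle fibres, had 1505 and 2 counts, lower by 899-fold, with an exact 95% counting interval of 248 to 7429.9. MYH13 (at least 458-fold lower), MYH1 (at least 146-fold lower) and MYH4 (at least 57.7-fold lower) had no count in the knock-down, so that the folds are bounds against 3 counts over the group. These myosins lie side by side on chromosome 17 and are near-identical in sequence, so reads of one could be counted for another and their single values are uncertain. DMD (dystrophin), which links actin to the membrane, changed by -4.51, ACTN2 (sarcomeric actinin) by -4.10 and PAX7, of muscle stem cells, was at least 20.7-fold lower, with no count in the knock-down. The defining muscle factors MYOD1, MYOG and MYF5 did not pass the filter on low counts, and DES (desmin) stood at 2.11 and 2.70 CPM in YT shNT and 0.208 and 0.310 CPM in YT shYEATS2 (-2.86). TNNT1, a troponin of slow fibres (0.95), was higher.

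Smooth muscle and contractile genes were lower in 5 of 17 and higher in 0. CNN1 (calponin) changed by -2.09, CALD1 (caldesmon) by -1.40 and ACTA2 (smooth muscle actin) by -1.06, and TPM1 (tropomyosin) by -0.81. Junction genes were lower in 7 of 25 and higher in 1. DSG2, a desmosomal cadherin, stood at 48.7 and 43.0 CPM in YT shNT and 0.291 and 0.258 CPM in YT shYEATS2 (-6.97), and GJA1 (connexin 43) at 2.06 and 0.748 CPM in YT shNT and 0.125 and 0 CPM in YT shYEATS2. The fold of GJA1 rests on 3 counts in the knock-down (20.7-fold, with an exact 95% counting interval of 6.70 to 104). Controls were well above the knock-down samples for both. Cadherins were rearranged, with rises of CDH2 (N-cadherin, 8.08 and 9.72 to 70.3 and 72.5 CPM, 2.99), FAT4 (3.32) and DCHS2 (3.51), and falls of CDH12 (-5.04) and FAT2 (-2.11). Of 32 clustered protocadherins, which share their constant exons and so their reads, 10 were higher and 1 lower, with a median of 0.70. Without 1 of the 4 samples 9 to 10 muscle, 2 to 3 smooth muscle and 3 to 5 junction falls and 1 to 4 protocadherin rises were called, with 3 to 4 rises and 3 falls of the cadherins.

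Receptor tyrosine kinases, which start the MAPK and PI3K cascades, were lower in 9 and higher in 2 of 31. NTRK3, the receptor of neurotrophin 3, stood at 3.06 and 3.45 CPM in YT shNT and 0.708 and 0.619 CPM in YT shYEATS2 (-2.15), and FGFR4 (-2.10), DDR2 (-1.60) and PDGFRB (-1.15) were lower. MET, the receptor of hepatocyte growth factor, stood at 30.1 and 25.5 CPM in YT shNT and 96.5 and 79.4 CPM in YT shYEATS2 (1.66), and ERBB3 rose by 1.18. Of 26 ligands, BDNF (2.71), VEGFC (2.60) and PDGFC (2.41) were higher and NTF3 (-2.91), VEGFA (-1.49) and FGF1 (-1.41) lower, 5 and 4 in all. Feedback genes that ERK induces were higher in 6 and lower in 1 of 28. The receptor inhibitors SPRY1, SPRY2 and SPRY4 rose by 1.31, 1.32 and 0.90 and the ETS factor ETV4 by 1.25 on the log2 scale, with SPRY2 on chromosome 13, while the phosphatase DUSP2 was lower (-2.16). The MAPK cascade had 7 falls, led by RPS6KA2 (-1.83) and the exchange factors RASGRP3 (-1.79) and RASGRP1 (-1.68), and 2 rises of 41, a called share of 22% beside 20.7% of all genes and a median of 0.04. In the PI3K-AKT pathway 5 of 36 were higher, among them the phosphatase INPP5D (2.19) and the kinase SGK1 (1.35), and 4 lower, among them SGK3 (-2.12), EIF4EBP1 (-1.61) and DEPTOR (-0.66), all 3 from chromosome 8. With 1 sample left out, 4 to 6 receptor falls, 2 to 4 ERK feedback rises, 1 to 3 MAPK falls and 1 to 2 PI3K rises were called.

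Secreted factors of developmental signalling changed both ways. In the TGF-beta and BMP family 9 of 42 were lower and 2 higher, a called share of 26.2% beside 20.7% of all genes tested. The ligands BMP7 (-3.71), BMP6 (-2.75) and BMP2 (-1.66), the BMP antagonists CHRD (-5.00) and NOG (-3.11) and the BMP effector SMAD9 (-2.32, chromosome 13) were lower. FST (follistatin), which traps activins, stood at 3.22 and 2.82 CPM in YT shNT and 50.2 and 42.0 CPM in YT shYEATS2 (3.89), and the receptor TGFBR2 rose by 1.25. In the Notch pathway 7 of 21 were lower, with the target HEY2 (-2.24), the ligand JAG2 (-1.58) and the receptors NOTCH1 (-1.06) and NOTCH2 (-0.78), and 2 higher, the ligand JAG1 (1.83) and the glycosyltransferase LFNG (3.21). In the Wnt pathway 6 of 41 were higher and 4 lower. The Wnt antagonists DKK1 (2.35) and WIF1 (no count in the controls, at least 10.6-fold higher) rose, and the antagonist SFRP4 (-3.22) and the ligand WNT4 (-2.22) were lower. Removing 1 sample gave 5 to 7 TGF-beta and BMP falls, 3 to 6 Notch falls and 3 to 4 rises and 1 to 3 falls of the Wnt pathway.

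Guidance cues, which steer axons and migrating cells, gave 9 rises and 6 falls of 44. EFNA5, an ephrin, stood at 0.528 and 0.403 CPM in YT shNT and 19.8 and 18.5 CPM in YT shYEATS2 (5.11), and SEMA3A, a secreted semaphorin, at 2.32 and 1.44 CPM in YT shNT and 35.2 and 32.9 CPM in YT shYEATS2 (4.11). SLIT3, a ligand of ROBO receptors, stood at 56.3 and 63.3 CPM in YT shNT and 0.749 and 0.929 CPM in YT shYEATS2 (-6.02), and SEMA6A (-4.0) and NTN1 (-2.52) were lower. The netrin receptors UNC5C (4.27) and UNC5B (-3.17) went opposite ways. Of 22 potassium and calcium channel genes, 6 were higher, led by CACNA2D3 (5.03), and 9 lower. Of 13 PAX, EYA and related factors, 6 were higher, among them PAX9 (2.78) and PAX6 (2.28), and of 34 HOX genes HOXC12 (3.34) and HOXD13 (-1.96) were the largest rise and fall, with 4 rises and 2 falls. Keratins and other intermediate filaments gave 6 rises, with KRT15 (2.87) and VIM (1.47), and 5 falls, with KRT8 (-1.82) and KRT17 (36 and 2 counts, lower by 21.5-fold, with an exact 95% counting interval of 5.54 to 184), of 20. Leaving out 1 sample left 6 to 8 rises and 3 to 4 falls of guidance genes, 4 to 6 and 4 to 6 of channels, 2 to 3 rises of PAX, EYA and related factors, 1 to 2 of HOX genes, and 2 to 4 keratin falls.

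Genes of mitosis were higher in 11 and lower in 0 of 29, with a median of 0.68. Summed over the list, the YT controls held the lowest CPM (902, 688), followed by the knock-down (1327, 1193). Larger sums were found for YT shZZZ3 (2475, 2418), TC shNT (2116, 2303) and TC shYEATS2 (2705, 1666). Why the YT controls stood lowest was not tested. KIF20A, a kinesin of cytokinesis, stood at 36.4 and 28.8 CPM in YT shNT and 118 and 104 CPM in YT shYEATS2 (1.77). CDC20, an activator of the anaphase-promoting complex (1.37), the kinase AURKB (1.29), the survivin gene BIRC5 (1.18) and cyclin CCNB1 (1.06) were higher too. These calls rest on all samples, since only 1 to 2 were made without any single one of the 4. DNA replication genes gave 3 rises, with RRM2 (1.71) and TYMS (1.16), and 3 falls, with E2F8 (-1.33), of 31. Among 16 regulators of G1, CCND2 (cyclin D2) stood at 1.64 and 1.78 CPM in YT shNT and 0 and 0.0516 CPM in YT shYEATS2, 62 counts against 1 (lower by 74.1-fold, with an exact 95% counting interval of 12.8 to 2972). RB1, on chromosome 13, was lower (-1.27), and the CDK inhibitors CDKN2D (1.83) and CDKN2C (1.12) were higher. Leave-outs gave 1 rise and 0 to 1 falls of replication genes and 1 to 2 falls and 1 to 2 rises of G1 genes.

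Of 19 p53 targets, 5 were lower and 0 higher. GDF15 stood at 21.2 and 17.5 CPM in YT shNT and 0.791 and 0.774 CPM in YT shYEATS2 (-4.48), and SESN2, also of the stress list, the death receptors FAS (-1.82) and TNFRSF10B (-1.13) and the RNA-binding protein ZMAT3 (-0.89) were lower. TNFRSF10B lies on chromosome 8. CDKN1A (p21), the classical target, changed by 0.18 (edgeR adjusted p = 0.656) and did not pass. Apoptosis regulators were split, with BCL2L11 (BIM, 1.38) and BCL2L1 (BCL-XL, 1.28) higher and BIRC3 (-2.13), HRK (-1.94) and BCL2 (-1.34) lower, 5 and 5 of 21. With 1 sample left out, 2 to 3 p53 target falls and 1 to 2 falls and 1 to 2 rises of apoptosis regulators were called.

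In lipid metabolism, cholesterol synthesis genes were higher in 7 of 24 and lower in 0, with a median of 0.69. The pathway enzymes MVK (1.32), MVD (1.22), FDPS (1.17) and DHCR7 (0.89) rose. Without 1 of the 4 samples 0 to 1 were called, and with a correction for GC content 12. SREBF1, which drives fatty acid synthesis (1.14), FASN (1.28) and ACLY (0.81) were higher. Several adipogenic factors were lower. CEBPA stood at 3.75 and 3.62 CPM in YT shNT and 0.208 and 0.258 CPM in YT shYEATS2 (-3.56), and the preadipocyte factor ZNF423 (-5.02), PRDM16 of brown fat (-4.01) and the lipid droplet proteins PLIN4 (-3.64) and PLIN2 (-0.99) were lower, while KLF5 was higher (2.51). The whole list of 31 gave 7 rises and 8 falls. PPARG, the master factor, changed by -0.50 (edgeR adjusted p = 0.209) and did not pass. Leave-outs gave 2 to 4 rises and 6 to 7 falls of this list.

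GAPDH of glycolysis, often taken as a reference gene, stood at 2434 and 2437 CPM in YT shNT and 4982 and 4693 CPM in YT shYEATS2 (0.99), and LDHA (0.90) and ENO2 (1.43) were higher, while the glucose carrier SLC2A3 was lower (-1.64). Glycolysis and hypoxia genes gave 6 rises and 2 falls of 27. NRF2 targets, which handle oxidants, were lower in 4, with ME1 (-1.70) and TXNRD1 (-1.06), and higher in 2, with AKR1C1 (3.38), of 17. AKR1C1 has near-identical paralogs, so its value is uncertain. Nuclear genes of the respiratory chain had a median of 0.25 with 5 rises and 2 falls of 83. The 13 genes of the mitochondrial genome had a median of 0.53, with MT-ND3 (1.09) and MT-CO3 (0.75) higher. Leaving out 1 sample left 1 to 4 glycolysis rises, 1 to 2 NRF2 falls, 1 to 2 nuclear respiratory chain rises and 1 of the mitochondrial genome.

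Of 22 chemokines and cytokines, CX3CL1 (-4.54), IL34 (-4.01), IL33 (-3.29) and CXCL12 (-1.45) were among 6 falls and CXCL5 (2.86) and CXCL1 (1.5) among 3 rises. NF-kB pathway genes gave 5 falls and 0 rises of 20, with the inhibitor TNFAIP3 (-1.23) and the adhesion protein ICAM1 (-1.12). Interferon-stimulated genes were split evenly, with IFI27 (-3.14) and IFIT2 (-1.07) lower and IRF9 (1.43) and OAS3 (0.88) higher, 4 each way of 33. AP-1 factors gave a rise of JUN (0.75) and falls of FOS (-0.89), MAFF (-1.80) and ATF3. Of 20 endothelial genes, ERG (-3.33), NOS3 (-2.09) and FLT1 (-1.44) were among 4 falls and CLDN5 (2.58) was the 1 rise. With 1 sample left out, 5 falls and 1 to 2 rises of chemokines, 3 to 4 NF-kB falls, 1 to 2 falls and 1 to 4 rises of interferon-stimulated genes, 2 AP-1 falls and 2 endothelial falls were called.

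**Figure D3:**
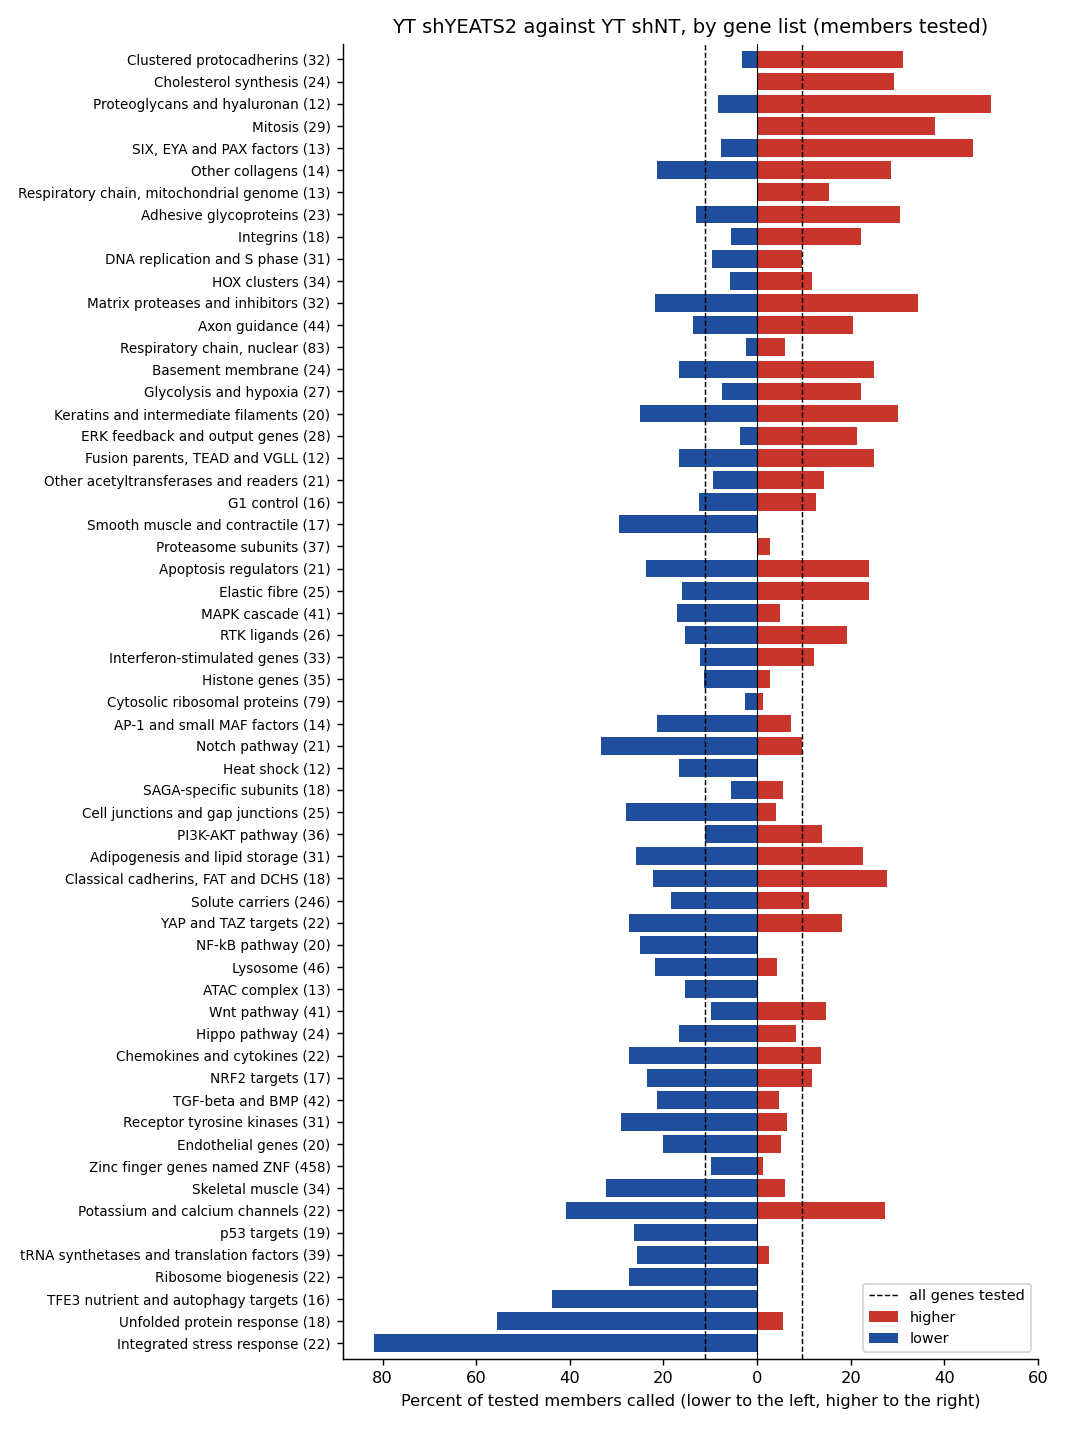
Percent of tested members called lower (blue, to the left of 0) and higher (red, to the right) in YT shYEATS2 against YT shNT for gene lists, with the number tested in parentheses and the lists ordered by median log2 fold change. Dashed lines give the share over all genes tested (11.1% lower, 9.61% higher). Falls without rises are seen for the integrated stress response (18 of 22), and rises without falls for mitosis (11 of 29) and cholesterol synthesis (7 of 24).

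Some called shares lay near or under the 20.7% of all genes and say nothing particular about their lists. Among these lists were the ATAC (15.4%) and SAGA (11.1%) subunits, other acetyltransferases and readers (23.8%) and the MAPK cascade (22%). Others were the replication (19.4%), heat shock (16.7%), interferon-stimulated (24.2%), Wnt (24.4%), HOX (17.6%) and ZNF (11.1%) genes. Proteasome subunits (2.7%), cytosolic ribosomal proteins (3.8%) and the nuclear (8.43%) and mitochondrial (15.4%) respiratory chain genes lay under that share too. The Hippo, ERK feedback, PI3K-AKT, G1, NF-kB and endothelial lists each had 25% called, which is also close to it. A little above it lay the lysosome (26.1%), TGF-beta and BMP (26.2%), p53 target (26.3%) and ribosome biogenesis (27.3%) lists. So did the integrins (27.8%), tRNA synthetases and translation factors (28.2%) and AP-1 factors (28.6%).

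Ranked by size among protein-coding genes of at least 10 CPM in the higher group, the largest falls after the myosins were TRIML2, a tripartite-motif-like gene (43.9 and 37.3 to 0.167 and 0.103 CPM), DSG2, PHF24 (11.9 and 14.8 to 0 and 0.0516 CPM), NRXN3, a synaptic neurexin (12.8 and 13.6 to 0.0832 and 0 CPM), KLHDC7B (10.2 and 14.4 to 0.0416 and 0.0516 CPM), LAMA1, IP6K3, an inositol phosphate kinase (14.6 and 17.3 to 0.125 and 0.103 CPM) and PARM1 (117 and 118 to 1.46 and 1.86 CPM). The fold of PHF24 rests on 1 count in the knock-down (577-fold, with an exact 95% counting interval of 103 to 22837). NRXN3 and KLHDC7B had 2 counts each there, and were lower by 286-fold, with an exact 95% counting interval of 78.8 to 2369, and by 266-fold, with an exact 95% counting interval of 73.2 to 2202. The largest rises were FRMPD4 (0.264 and 0.288 to 27 and 23.5 CPM), a synaptic scaffold, DMBT1 (0.475 and 1.21 to 44.9 and 54.5 CPM), a mucosal defence protein, PTPRO (0.158 and 0.403 to 14.2 and 16.8 CPM), a receptor phosphatase, and EFNA5. Next came MARCHF4, a ubiquitin ligase (5.07), NRK (5.03), CACNA2D3, CD24 (4.70), the nuclear receptor NR0B1 (4.67), the microtubule protein MAP2 (0.528 and 0.518 to 15.2 and 12.5 CPM), the pioneer factor FOXA2 (4.29) and UNC5C. Samples of the groups did not overlap for any of these, which the ranking required.

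Among the most abundant called genes were the following. MT-CO3 of the respiratory chain stood at 3439 and 3828 CPM in YT shNT and 5573 and 6659.7 CPM in YT shYEATS2, and ACTG1 (gamma actin) at 1738 and 1713 CPM in YT shNT and 3812 and 3330.4 CPM in YT shYEATS2. PEG10, an imprinted retrotransposon-derived gene, stood at 678 and 511 CPM in YT shNT and 3231 and 3198 CPM in YT shYEATS2 (2.43), and IGFBP4, which binds insulin-like growth factors, at 497 and 503 CPM in YT shNT and 2314 and 2242 CPM in YT shYEATS2 (2.19). These were all higher in the knock-down. IGFBP5, of the same family as IGFBP4, fell, at 2143 and 2156 CPM in YT shNT and 417 and 415 CPM in YT shYEATS2 (-2.37), and so did SERPINH1, the collagen chaperone, at 2129.9 and 2337 CPM in YT shNT and 1252 and 1335 CPM in YT shYEATS2 (-0.79). ITM2B (chromosome 13, -0.64), PABPC1 (chromosome 8, -0.75) and NFE2L1, a regulator of proteasome genes (-0.65), were lower as well.

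**Figure D4:**
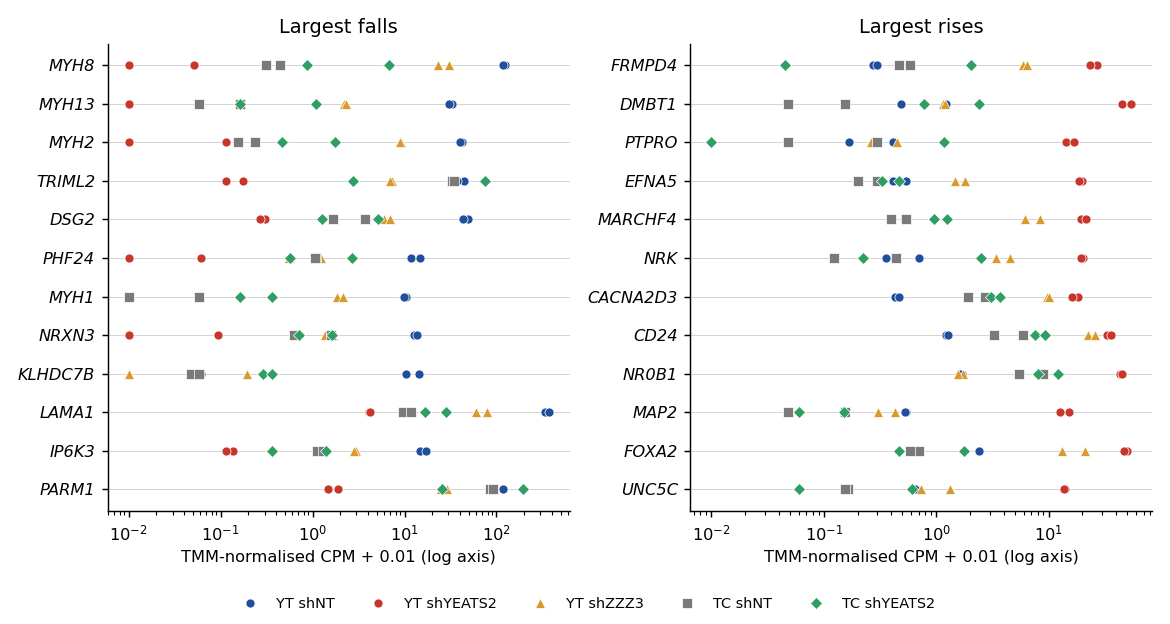
TMM-scaled CPM + 0.01 on a log axis for the 12 largest falls (left) and 12 largest rises (right) of the ranking, each point 1 sample of 5 groups. By construction both YT shYEATS2 points lie on one side of both YT shNT points, and the other 3 groups lie between or beyond them.

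Position on the genome went with the change. Genes of chromosome 8 had a median log2 fold change of -0.56 over 637 genes, with 192 lower (30.1%) and 25 higher. Genes of chromosome 13 had a median of -0.54 over 317, with 82 lower (25.9%). In TC shYEATS2 against TC shNT the medians were -0.01 and -0.07, and in YT shZZZ3 against YT shNT they were -0.24 and -0.21. The 274 falls on these chromosomes are part of the 2052. Outside them the median was 0.01, though single chromosomes differed. The next lowest medians were those of chromosomes 21 (-0.29), 18 (-0.27), 9 (-0.22), 16 (-0.20) and 7 (-0.20). Of their genes 15.1% to 18.6% were lower, beside 11.1% of all genes tested. Of the nuclear chromosomes, 17 (0.28) and 14 (0.23) had the highest medians. The part of chromosome in the results of single lists was not tested beyond the correction given with GC content.

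**Figure D5:**
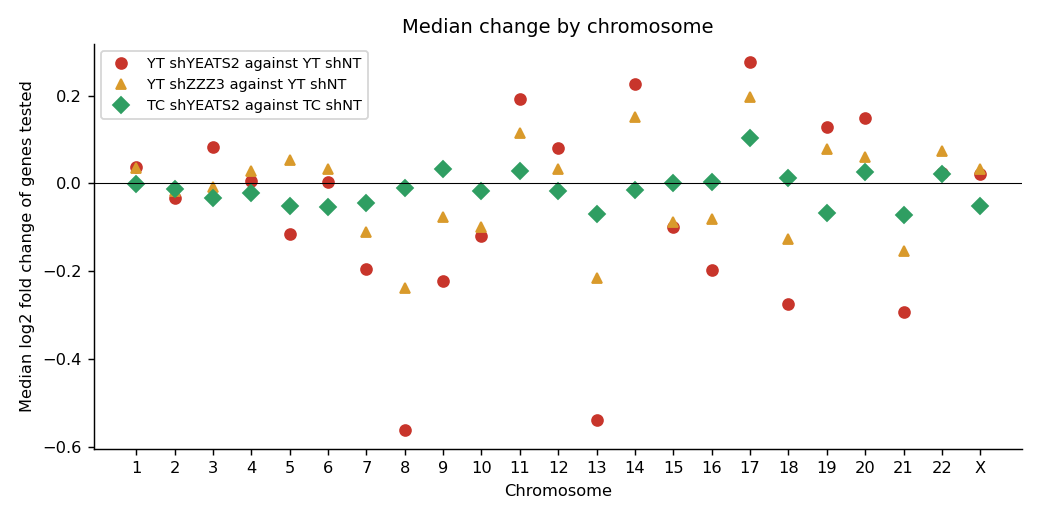
Median log2 fold change of the tested genes by chromosome, for YT shYEATS2 against YT shNT, YT shZZZ3 against YT shNT and TC shYEATS2 against TC shNT. Chromosomes 8 (-0.56) and 13 (-0.54) stand lowest in YT shYEATS2.

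Called genes also stood in runs. Of tested neighbours on a chromosome, 42 runs of at least 4 called genes of one direction held 194 of the 3821 called genes. Of the runs, 33 were lower (154 genes) and 9 higher (40 genes). How many runs the called share alone would give was not tested. Some runs hold antisense partners, such as WDR86 and WDR86-AS1, or near-identical copies, whose reads may be shared. The longest, 10 genes from RFXAP to LHFPL6 at chr13:36819222-39603528 (GRCh38), had a median of -1.43 and holds SMAD9, SUPT20H and POSTN. On chromosome 17 the run from GAS7 to MYH2, at chr17:9910606-10623886, holds the myosins. On chromosome 7 GIMAP5, TMEM176B, TMEM176A, AOC1, KCNH2, NOS3 and ATG9B were lower together (chr7:150722253-151024499), and on the X chromosome a run with the SPANX genes, which are near-identical copies, was higher. ZNF zinc finger genes, many of them in clusters on chromosome 19, were lower in 45 and higher in 6 of 458, with a median of -0.30. Leaving out 1 sample left 12 to 14 ZNF falls.

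GC content of the exons went with the change too. Over 13048 genes the Spearman correlation of the log2 fold change with GC content was 0.37, across genes that share the same 4 libraries. Of 4 equal parts, that of lowest GC (30.2% to 41.8%) had a median of -0.39 and that of highest GC (56.0% to 74.2%) a median of 0.29. With GC content corrected per sample, 20 of the 22 stress genes, 8 of the 18 unfolded protein response genes and 73 ZNF genes were lower and 16 mitosis genes higher. With chromosome corrected as well, these counts were 20, 9, 67 and 13.

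The effect of the hairpin was next compared between the fusions, by the difference of its log2 fold change in YT minus TC. In TC cells 8 genes passed (0.0434% of those tested), with 926 at an unadjusted edgeR p under 0.05. The difference itself passed for 1725 genes (9.37%), 650 more positive and 1075 more negative in YT. The integrated stress response held 17 such genes of 22. INHBE stood at 1.91 and 2.29 CPM in TC shNT and 3.84 and 21.8 CPM in TC shYEATS2, and its difference was -7.28 ± 0.96 (SE, edgeR adjusted p = 8.89e-04). CTH stood at 8.32 and 8.94 and 13.7 and 23.7 CPM in the same groups (difference -3.98), and DDIT3 at 13.7 and 12.5 and 26.5 and 49.9 CPM (difference -3.64). The list's median was 0.86 in TC, where replicate 2 of shYEATS2 was above replicate 1 in 19 of the 22 genes. Without that replicate 15 of the 22 differences passed, and without any other single one of the 8 samples 14 to 17. Over all genes the differences that passed numbered 787 to 882 without 1 of the 4 YT samples, 3023 without TC shNT replicate 2 and 1383 to 1739 without another TC sample.

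The myosins MYH8 (-13.22), MYH13 (-10.43), MYH2 (-10.39) and MYH1 (-8.51), the secretory granule protein CHGA (-9.40) and KLHDC7B (-8.13) had the most negative differences, of which those of the myosins and KLHDC7B are fitted values that rest on 2 or fewer counts in YT shYEATS2. CHGA stood at 16.4 and 17.9 CPM in YT shNT and 0.791 and 0.671 CPM in YT shYEATS2, and at 0.420 and 0.382 CPM in TC shNT and 27.8 and 3.47 CPM in TC shYEATS2. FRMPD4 (5.33), EFNA5 (4.59), CACNA2D3 (4.51), the actin nucleator FMN2 (4.49), MAP2 (4.39) and the urea carrier SLC14A1 (4.38) had the most positive ones. Of the 4 matrix genes, LAMA1 differed by -7.47 (edgeR adjusted p = 1.42e-05), GPC4 by -6.01 (1.42e-05), FBLN5 by -4.51 (1.27e-04) and SPP1 by -2.97 (4.03e-04). In TC, LAMA1 stood at 9.73 and 11.6 CPM with shNT and 28.1 and 16.9 CPM with shYEATS2. RRAGD had a difference of -2.88 (edgeR adjusted p = 1.80e-04) and ANKRD1 of 2.27 (edgeR adjusted p = 0.0169).

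ZZZ3 is another ATAC subunit, and its hairpin shares the YT shNT controls, so the hairpins were compared directly and the values against shNT are given side by side. YT shZZZ3 against YT shNT gave 1846 called genes (10%), and YT shYEATS2 against YT shZZZ3 gave 1327 (7.21%), 629 higher and 698 lower with the YEATS2 hairpin. YEATS2 itself was -1.91 in the direct comparison and was the only 1 of the 13 ATAC subunits to pass it. ZZZ3 mRNA was therefore not shown to differ between the YEATS2 and ZZZ3 hairpins. Medians with the YEATS2 and the ZZZ3 hairpin were -1.93 and -1.98 for the integrated stress response, -0.63 and -0.74 for the unfolded protein response, -0.46 and -0.64 for TFE3 targets and 0.68 and 1.45 for mitosis. None of the 22 stress genes passed the direct comparison, in edgeR, DESeq2 or limma-voom, while 3827 genes had an unadjusted edgeR p under 0.05 in all. INHBE stood at 4.73 and 1.65 CPM with the ZZZ3 hairpin, and DDIT3 at 21.5 and 20.2 CPM. Of 29 mitosis genes, 9 were lower with the YEATS2 than with the ZZZ3 hairpin, but 0 without either YT shYEATS2 sample and 4 without YT shZZZ3 replicate 2, and 21 by DESeq2. Genes passing the direct comparison numbered 363 and 405 without YT shYEATS2 replicate 1 or 2, and 774 without YT shZZZ3 replicate 2.

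The direct comparison set other genes apart. MYH8 stood at 23.1 and 30.6 CPM with the ZZZ3 hairpin against 1 count in all with the YEATS2 hairpin, FNDC1, a fibronectin-domain protein, at 9.10 and 12.3 CPM against 0 and 0.155 CPM with the YEATS2 hairpin (3 counts), and LAMA1 at 59.2 and 77.9 CPM (-4.02). CHGA (-4.72), TEX13C (-4.55) and ESX1 (-4.25) were also lower with the YEATS2 hairpin. DMBT1 (1.13 and 1.18 CPM with ZZZ3, 5.32), PTPRO (5.15), MAP2 (4.98), NR0B1 (4.68), the G protein regulator RGS2 (4.35) and the potassium channel KCNA3 (4.09) were higher with it. GPC4 stood at 26.2 and 25.2 CPM (-3.62, edgeR adjusted p = 5.27e-05), FBLN5 at 14.7 and 12 CPM (-1.56, 0.00726) and SPP1 at 64.9 and 68.8 CPM (-0.45, 0.310) with the ZZZ3 hairpin. MMP16 (4.24) and ADAMTS2 (-4.01) differed between the hairpins, and of the ERK feedback genes 9 of 28 were higher with the YEATS2 hairpin, and 2 to 6 in either direction with 1 sample left out.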

How the data were processed

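RNA was sequenced by the authors from stranded, poly(A)-selected libraries of pooled SW872 lines with paired ends. Their methods describe the bcbio-nextgen pipeline with HISAT2 alignment to hg38 and Ensembl annotation, and also Salmon with tximport, without saying which made the deposited files. The deposited values are raw counts per gene as whole numbers, with no filter or scaling by the authors, for 58735 Ensembl gene IDs (25748 at 0 in all samples). The per-sample and combined tables differed in 0 cells. Symbols and coordinates came from GENCODE release 44 (GRCh38), which held 99.1% of the IDs, and promoters from RefSeq (GRCh38), which matched 11535 tested genes. How strand and multiply mapped reads were counted is not given in the sources used here, so paralogs and overlapping genes are uncertain.

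Samples were grouped by their titles into 6 groups of 2. Counts were scaled by TMM. The 18415 genes averaging 5 or more counts across 12 samples were kept, and a quasi-likelihood model of all 6 groups was fitted in edgeR 4.0.16 (R 4.3.3, robust, prior count of 2, 6 residual degrees of freedom, prior degrees of freedom 5.38 at the median, common biological coefficient of variation 0.2052). The 3 main contrasts were YT shYEATS2 against YT shNT, the difference of the YEATS2 hairpin's effect between the lines, and YT shYEATS2 against YT shZZZ3. TC shYEATS2 against TC shNT and YT shZZZ3 against YT shNT came from the same fit and gave the values set beside them. Neither was run under the alternatives or with a sample left out. Tests were two-sided with Benjamini-Hochberg adjustment over all genes tested, and called means an adjusted p under 0.05. The SE of a log2 fold change was not estimated by the fit. It is the absolute log2 fold change divided by the square root of the F of its test, and so is approximate. Fold bounds were set against 3 counts over a group, and ratios on 1 to 3 counts carry exact 95% intervals for counting error only. Total counts of 17451893 to 29294805 set the precision. The fit was tested on simulated data.

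The genes to name were YEATS2, the 4 matrix genes of the study, the 12 largest changes each way among protein-coding genes of at least 10 CPM with no overlap of samples, the called members of each list with the largest change (at most 6 each way) with others needed by role, the 8 most abundant called genes each way, and the 6 largest each way in the other contrasts. Some of these genes are not reported here. The members, 61 gene lists and 7 marker lists were chosen with earlier results of these data known. Alternatives were RLE and total-count scaling, other count filters, DESeq2 1.42.0, limma-voom (limma 3.58.1), GC correction, fewer groups, a replicate block and leaving out each sample. A joint GC and chromosome correction was added after seeing the data.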

Additional observations from a re-analysis of the deposited data

Results flagged for a closer look

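The effect of the YEATS2 hairpin differed between the fusion lines, by the interaction term of the edgeR fit, for 1725 genes. Of the 294 named genes called in YT cells, 190 were among them. Many of these were named for a large change in YT or a large difference between the lines. Both tests also share the YT samples, so this share was raised by the choice of genes and is not a result. Over gene lists, the difference passed for 17 integrated stress response genes of 22, 11 skeletal muscle genes of 34, 11 receptor tyrosine kinases of 31, 10 matrix proteases and inhibitors of 32 and 10 potassium and calcium channel genes of 22, against 9.37% of all genes tested.

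More negative in YT than in TC, on the log2 scale, were MYH8 (-13.22), MYH13 (-10.43), MYH2 (-10.39), CHGA (-9.40), MYH1 (-8.51), KLHDC7B (-8.13), LAMA1 (-7.47), INHBE (-7.28), GPC4 (-6.01), FBLN5 (-4.51), CTH (-3.98), DDIT3 (-3.64), SPP1 (-2.97) and RRAGD (-2.88). MYH8 stood at 0.305 and 0.430 CPM in TC shNT and at 6.73 and 0.854 CPM in TC shYEATS2, against 124 and 118 CPM in YT shNT. More positive in YT were FRMPD4 (5.33), EFNA5 (4.59), CACNA2D3 (4.51), FMN2 (4.49), MAP2 (4.39), SLC14A1 (4.38) and ANKRD1 (2.27).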

How the results depend on the processing

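Each group had 2 samples, so the counts of calls moved with each sample left out. YT shYEATS2 against YT shNT gave 3821 calls, and 8719 in a fit to these 4 samples only. Leaving out 1 of them gave 1527 to 1654, of which 1517 to 1640 were among the 3821 with their direction, and the share of higher genes fell from 46.3% to 35.8% and 36.4% without YT shNT replicate 1 or 2. The direct comparison with the ZZZ3 hairpin gave 1327 calls, 2322 with no filter on low counts, 2708 with GC correction, 2766 with GC and chromosome correction (added after seeing the data) and 363 to 1178 with 1 sample left out (363 and 405 without YT shYEATS2 replicate 1 or 2, 774 without YT shZZZ3 replicate 2). The difference between the lines gave 1725 calls, 2611 with no filter, 3336 with GC correction, 3323 with GC and chromosome correction and 787 to 3023 with 1 sample left out (787 to 882 without a YT sample, 3023 without TC shNT replicate 2). In the direct comparison the share of higher genes was 47.4%, and 36.8% with no filter. The causes were not tested. All other alternatives left the 3 counts within 1.5 times, with 3676 calls by limma-voom and 4393 by DESeq2 for YT shYEATS2 against YT shNT.

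Of the 294 named genes called in that comparison, 156 were called in every alternative that held them, 41 lost the call in an alternative other than a leave-out, and 136 in a leave-out. ITM2B (from -0.64 to 0.0487, edgeR adjusted p = 0.910) and PABPC1 (from -0.75 to 0.0460, edgeR adjusted p = 0.925) changed sign on the log2 scale with GC and chromosome correction, which by construction removes the median shift of chromosomes 13 and 8.

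The replicate number as a block gave 4656 calls for YT shYEATS2 against YT shNT, 2178 for the difference and 1654 for the direct comparison. Same-numbered samples correlated in their deviations from the group means by -0.00225 between YT shNT and YT shYEATS2, 0.0313 between YT shYEATS2 and YT shZZZ3 and 0.346 between TC shNT and TC shYEATS2 (13258 genes). Over all 15 pairs of groups the values ran from -0.438 to 0.898, 8 of them above 0, so the numbers were not taken as pairs.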
